A study of Mus musculus with 30 samples.

Results

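The heat shock chaperones are proteins that hold, fold and refold other proteins, and 10 of their genes were followed here in EL4 tumours, a transplanted T cell lymphoma of the mouse: Hsph1, Hsp90aa1, Hsp90ab1, Hspa8, Hspd1, Hspe1, Dnajb1, Dnaja1, Bag3 and Hspb1. The genes were listed by symbol, and each symbol was represented by its array row of highest mean value. This gave 9 of the 10 genes among 19938 genes with a row of a single symbol, and Hsp90ab1 was not analysed here. The list was chosen by measured values in part, namely those of Hsph1 at 0 and 18 h, which were lower after 18 h in tumours of water mice and not in those of antibiotic mice. Values of the list at these times are therefore given as a description and without p-values, and counts of calls there stand only beside the share over all genes. Comparisons that use neither of those times are tested, and comparisons that share arrays with the choice are marked.

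Mice received an antibiotic cocktail for 3 weeks (ABX) or none, a group that the labels call H2O, and were then given EL4 cells under the skin of the flank. After 7 days the mice were injected with oxaliplatin, a platinum drug that damages DNA, at 10 mg per kg, and tumours were taken 0, 6 or 18 h later. The groups were ABX and H2O at 0 h, ABX and H2O at 6 h, and ABX and H2O at 18 h, each with 5 arrays of 1 tumour sample. All titles carry the tag WT, and the age and strain of the mice are not given in the sources used here. All groups share the tumour line and the oxaliplatin protocol, no tumour at 6 or 18 h went without the drug, and the labels do not settle whether mice at 0 h had been injected. Drug and passage of time therefore cannot be told apart. Sample numbers run in blocks by group (1 to 5 H2O and 6 to 10 ABX at 0 h, 11 to 15 H2O and 16 to 20 ABX at 6 h, 21 to 25 H2O and 26 to 30 ABX at 18 h). The labels do not say what these numbers record. If handling followed them, group and order of handling cannot be told apart. The samples were whole tumours, in which fewer cells of a type and less RNA per cell cannot be told apart. Of 9 T cell markers, 7 had log2 values between 9.95 (Zap70) and 12.24 (Thy1) on all 30 arrays. Cd2 ran from 7.31 to 8.31 and Trat1 from 7.53 to 8.73, down to near the array medians of 7.253 to 7.365. Genes of muscle, skin, macrophages and vessels had levels that varied between tumours. Their medians ran from 5.62 (Dsg3) to 11.79 (Perp) for skin and from 6.91 (Casq1 and Myoz1) to 10.80 (Acta1) for muscle. Some of these markers thus lay below the array medians in most tumours.

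In a cell under protein stress the transcription factor HSF1 binds inverted repeats of the bases GAA upstream of chaperone genes and raises their transcription. The products work as a relay. J-domain proteins such as Dnaja1 and Dnajb1 hand unfolded clients to HSP70 proteins such as Hspa8, nucleotide exchange factors such as Hsph1 (HSP110) and Bag3 release them, and HSP90 proteins, with their co-chaperones, finish kinases and steroid receptors. Hspd1 (HSP60) and its lid Hspe1 (HSP10) form the folding chamber of mitochondria, and Hspb1 (HSP25 in the mouse) is a small heat shock protein that holds unfolded proteins without using ATP. Lymphoma cells, like other dividing cells, express several of these genes without any stress, Hspa8 and Hsp90ab1 being the constitutive forms.

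Upstream sequence was available for 7 of the 10 genes, from RefSeq on GRCm38.p6, as windows of 250 bases before an annotated start. The letters of the HSF1 repeat, GAANNTTC or TTCNNGAA (each its own reverse complement, so that a match holds on both strands), occurred in a window of 5 genes and in no window of Dnajb1 or Bag3. Of all 32851 windows, 12.8% held at least 1 of these letter patterns, so that a single match is common. The sequences below are shown because they set Hsph1, Dnaja1 and Hspb1, with matches that do not overlap, beside Hspe1, with an overlapping run, and Bag3, with none. Each is written 5′ to 3′ on the strand of the gene, and capitals mark the bases of a match.
Hsph1: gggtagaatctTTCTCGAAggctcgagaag
Hspe1: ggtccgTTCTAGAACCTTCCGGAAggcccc
Dnaja1: aaaagcctctaGAAAATTCtacgaggctcg
Hspb1: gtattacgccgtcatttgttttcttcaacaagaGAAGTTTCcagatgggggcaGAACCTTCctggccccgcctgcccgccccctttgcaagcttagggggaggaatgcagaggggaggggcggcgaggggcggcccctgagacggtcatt
Bag3: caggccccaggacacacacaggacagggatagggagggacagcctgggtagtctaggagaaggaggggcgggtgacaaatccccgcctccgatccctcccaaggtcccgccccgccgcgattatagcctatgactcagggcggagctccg

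The Hsph1 stretch lies on the minus strand at chr5:149636351-149636380, and its match begins 33 bases before the nearer annotated start and 54 before the other. The Hspe1 stretch lies on the plus strand at chr1:55088053-55088082 and holds 3 matches that overlap in a run of 18 bases, beginning 89 bases before the start. Such an overlap of both patterns was present in 0.466% of all windows. The Dnaja1 stretch is on the plus strand at chr4:40722333-40722362, with its match 124 bases before the start, and 2 further annotated starts of Dnaja1 had none. The Hspb1 stretch, at chr5:135887769-135887918 on the plus strand, holds matches 117 and 97 bases before the start. The Bag3 stretch is on the plus strand at chr7:128523433-128523582. For Hsph1, Hspe1 and Dnaja1 only 30 bases are shown, because another annotated transcript or gene covers their windows. Hspd1 and Hspe1 are neighbours read in opposite directions. For the Hspd1 start that lies 215 bases from the Hspe1 start, the window held the same 3 matches at the same positions, and for its other start the window held none. TATAAA was present on neither strand in any window of the 7 genes, against 12.4% of all windows, and CCAAT, searched on both strands, occurred at 2 places in each Hsph1 window and at 1 place in a Dnajb1 window and in 2 Dnaja1 windows, against at least 1 in 33.8% of all windows. Letters of this kind do not show that a factor was bound.

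**Figure D1:**
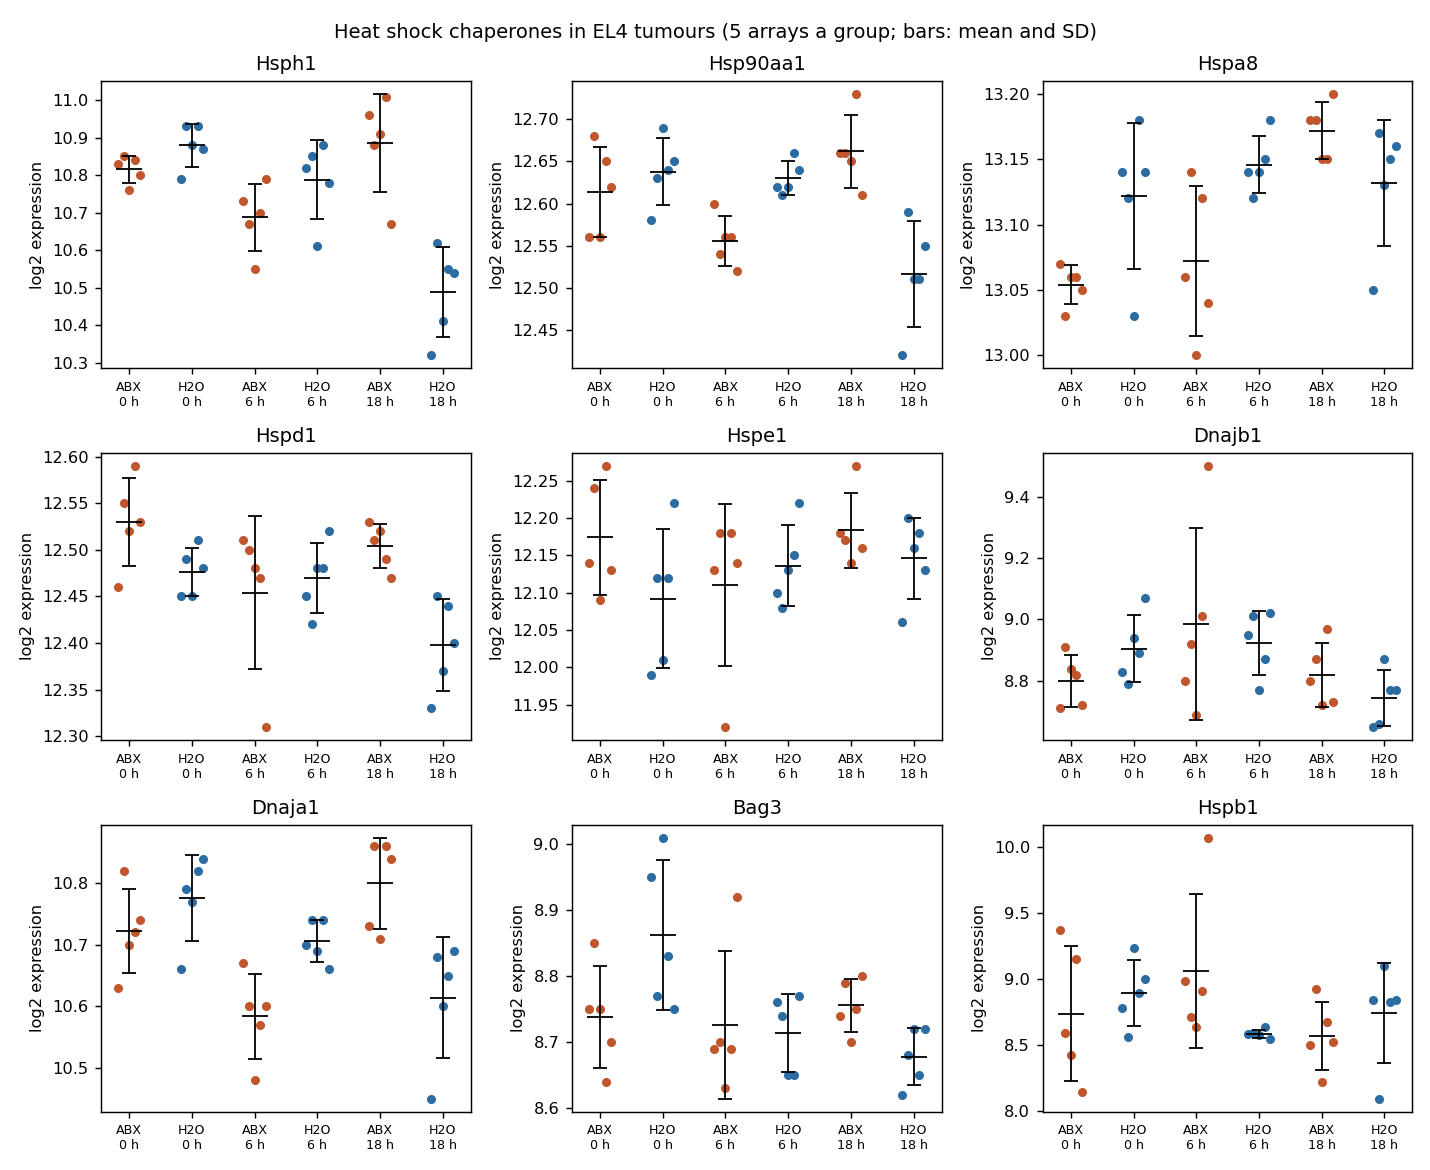
Log2 expression (vertical axes, each on its own range) of the 9 chaperone genes in every tumour, with ABX left of H2O at 0, 6 and 18 h; bars give the mean and SD of 5 arrays. Hsph1 in H2O tumours at 18 h lay between 10.32 and 10.62, below all ABX tumours of that time, and a single ABX tumour at 6 h stands apart for Hspb1 at 10.07.

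Hsph1, the HSP110 exchange factor, had the largest difference between ABX and H2O tumours at 18 h among the 9 genes. At 18 h its log2 values were 10.96, 10.88, 10.91, 11.01 and 10.67 in ABX tumours, against 10.32, 10.62, 10.41, 10.55 and 10.54 in H2O tumours, with no overlap. At 0 h they were 10.83, 10.85, 10.76, 10.84 and 10.80 in ABX tumours, against 10.79, 10.93, 10.88, 10.93 and 10.87 in H2O tumours, which overlap. The H2O tumours at 18 h were thus below every H2O tumour at 0 h, whereas the ABX tumours at 18 h spanned the values of their own 0 h group. In log2 terms 18 h minus 0 h was 0.07 ± 0.061 in ABX mice and -0.39 ± 0.061 in H2O mice (SE of the limma fit), a level in H2O tumours of 0.763 times that at 0 h. The difference between ABX and H2O was 0.40 ± 0.061 at 18 h, or 1.32-fold, and -0.06 ± 0.061 at 0 h. These are the values that chose the list and they are not a test of it.

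At 6 h Hsph1 stood at 10.73, 10.67, 10.55, 10.70 and 10.79 in ABX tumours, against 10.82, 10.85, 10.61, 10.88 and 10.78 in H2O tumours. The groups overlap, and the difference of -0.10 ± 0.061 (95% interval -0.22 to 0.03) gave an adjusted p of 0.373 by limma with Benjamini-Hochberg adjustment over all 19938 genes. Relative to 0 h the change at 6 h was -0.13 in ABX mice and -0.09 in H2O mice. From 6 to 18 h the log2 change was 0.20 ± 0.061 in ABX mice and -0.30 ± 0.061 in H2O mice. The signs of these changes were opposite.

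Hsp90aa1 and Dnaja1 had the same signs as Hsph1, with smaller differences. Hsp90aa1, the inducible HSP90, stood at 12.66, 12.66, 12.65, 12.73 and 12.61 in ABX tumours at 18 h, against 12.42, 12.59, 12.51, 12.51 and 12.55 in H2O tumours. These groups do not overlap and differ by 0.15 ± 0.034, or 1.11-fold. At 0 h Hsp90aa1 ran between 12.56 and 12.68 in ABX tumours and between 12.58 and 12.69 in H2O tumours. Its change by 18 h was 0.04 ± 0.034 in ABX mice and -0.13 ± 0.034 in H2O mice.

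Dnaja1, a J-domain partner of HSP70, stood at 10.73, 10.86, 10.71, 10.86 and 10.84 in ABX tumours at 18 h, against 10.45, 10.68, 10.60, 10.65 and 10.69 in H2O tumours. Again no ABX tumour was as low as an H2O tumour, and the difference was 0.18 ± 0.048. Its change by 18 h was 0.08 ± 0.048 in ABX mice and -0.16 ± 0.048 in H2O mice. Bag3, which couples HSP70 to the autophagy of damaged proteins, had values of 8.62, 8.68, 8.72, 8.65 and 8.72 in H2O tumours at 18 h, against 8.95, 8.77, 9.01, 8.83 and 8.75 in H2O tumours at 0 h. Every H2O tumour at 18 h was below every one at 0 h (-0.18 ± 0.052), while ABX and H2O at 18 h overlapped, with 8.70 to 8.80 in ABX tumours and 8.62 to 8.72 in H2O tumours.

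Hspa8 is the constitutive HSP70. Its values at 18 h were 13.18, 13.18, 13.15, 13.15 and 13.20 in ABX tumours, against 13.07, 13.03, 13.06, 13.06 and 13.05 in ABX tumours at 0 h. These ranges do not overlap, and the change was 0.12 ± 0.033 in ABX mice, beside 0.01 ± 0.033 in H2O mice, whose values ran from 13.05 to 13.17 at 18 h and from 13.03 to 13.18 at 0 h. ABX and H2O tumours overlapped for Hspa8 at 18 h and differed by 0.04 ± 0.033.

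The mitochondrial pair lay close to its 0 h levels. Hspd1 lay between 12.47 and 12.53 in ABX tumours at 18 h, against 12.33 to 12.45 in H2O tumours, without overlap and with a difference of 0.11 ± 0.037. Hspe1 lay between 12.14 and 12.27 in ABX tumours at 18 h, against 12.06 to 12.20 in H2O tumours, which overlap (0.04 ± 0.05). Their change by 18 h was -0.02 ± 0.037 for Hspd1 and 0.01 ± 0.05 for Hspe1 in ABX mice, and -0.08 ± 0.037 for Hspd1 and 0.05 ± 0.05 for Hspe1 in H2O mice.

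Dnajb1, the stress-inducible J-domain protein, and Hspb1 had the widest spread within groups among the 9 genes. Dnajb1 ran from 8.72 to 8.97 in ABX tumours at 18 h and from 8.65 to 8.87 in H2O tumours, and differed by 0.07 ± 0.095. Hspb1 ran from 8.22 to 8.92 in ABX tumours at 18 h and from 8.09 to 9.10 in H2O tumours (-0.17 ± 0.23). The SD within groups, pooled over the 6 groups, was 0.382 for Hspb1 and 0.157 for Dnajb1, and between 0.0402 and 0.0964 for the other 7 genes.

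**Figure D2:**
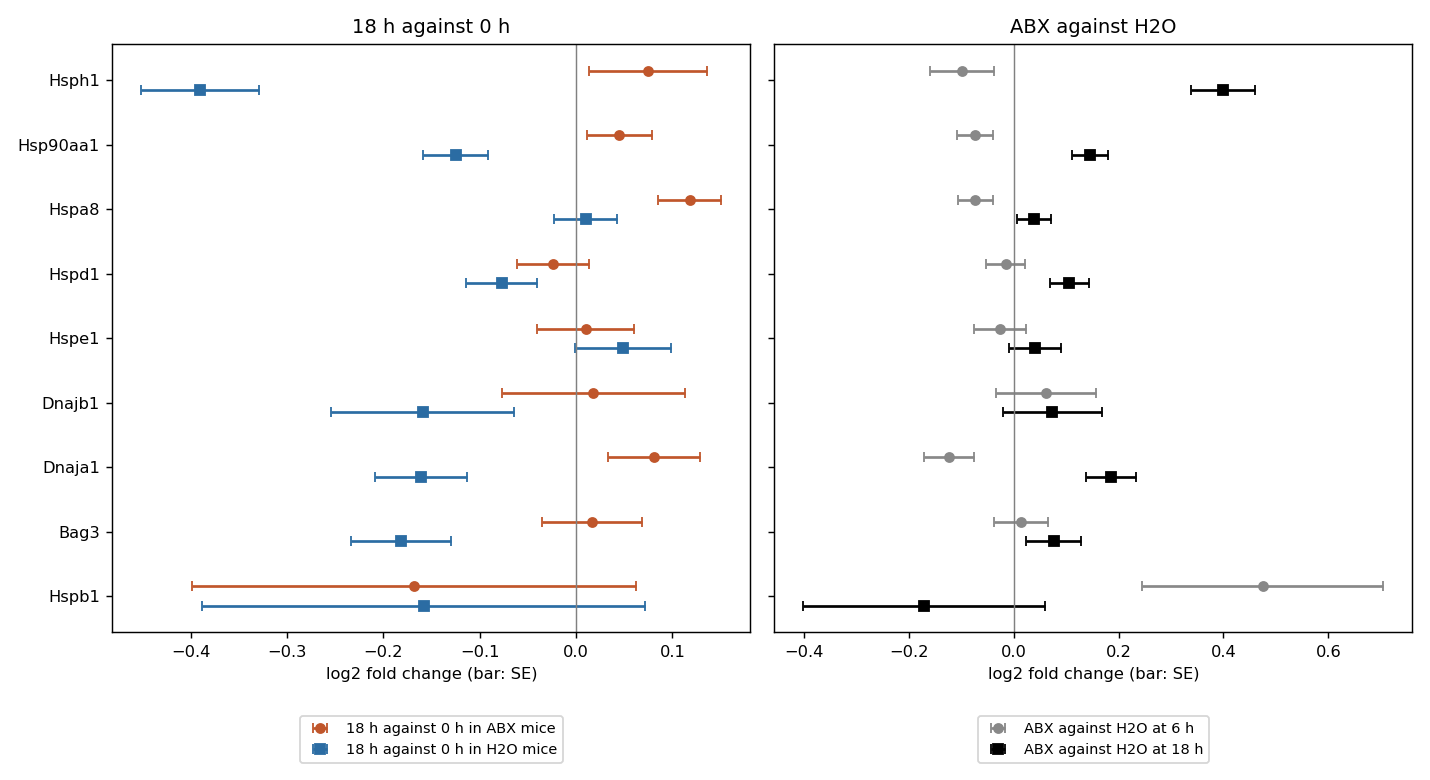
Log2 fold changes with SE (horizontal axes) of the 9 chaperone genes: left, 18 h against 0 h in ABX mice (circles, upper) and H2O mice (squares, lower); right, ABX against H2O at 6 h (grey) and 18 h (black). Hsph1 stood at 0.07 in ABX mice and -0.39 in H2O mice, and ABX minus H2O was -0.10 at 6 h and 0.40 at 18 h.

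Counted over the genes and read beside all genes, the 18 h comparisons look as follows. In H2O mice at 18 h against 0 h, 4 of the 9 genes had an adjusted p under 0.05, all lower (Hsph1, Hsp90aa1, Dnaja1 and Bag3), where 14.1% of all genes passed in either direction. The median change of the 9 genes was -0.16 and that of all genes 0.01. In ABX mice 0 of 9 passed by limma against 1.22% of all genes, and the median was 0.02. There 1 of 9 had an unadjusted p under 0.05, beside 2223 of all 19938 genes. For ABX against H2O at 18 h, 3 of 9 passed, all higher in ABX (Hsph1, Hsp90aa1 and Dnaja1), against 7.85% of all genes, and the median was 0.08 against -0.01 over all genes. At 0 h, 0 of 9 passed, with a median of -0.06, and 0.0903% of all genes passed. At that time 2 of 9 had an unadjusted p under 0.05, beside 1317 of all 19938 genes. The interaction of antibiotics with the change by 18 h is what the list was chosen for in Hsph1, where it was 0.47 ± 0.087. It was called for 1 of 9 genes, Hsph1 itself, and for 0.105% of all genes. For the other genes lower in H2O mice the interaction was 0.17 ± 0.049 for Hsp90aa1, 0.24 ± 0.068 for Dnaja1 and 0.20 ± 0.074 for Bag3. The list was chosen with these comparisons in view, and nothing is read from their counts.

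Single arrays and the scale change which genes are called. Without the lowest H2O tumour at 18 h, sample 21, the genes lower in H2O mice were Hsph1 and Bag3 only, and Hsp90aa1 stood at -0.10 and Dnaja1 at -0.12. Bag3 in turn lost this call without H2O sample 1 (-0.159) or 3 (-0.145), and Dnaja1 also without sample 4 or 5 and with the mean of rows. With an array left out, the call was kept in 10 of 10 fits for Hsph1, 9 for Hsp90aa1, 8 for Bag3 and 7 for Dnaja1. With only the groups compared in the fit, Hsph1 alone was called. Dnaja1 also lost its call between ABX and H2O at 18 h without H2O sample 21 (0.14) or ABX sample 29 (0.17). The interaction of Hsph1 lost its call when array medians were subtracted (0.46) and without any 1 of samples 2, 4, 23, 26 and 29, with values of 0.43 to 0.45.

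The comparison that shares no array with the choice of the list is ABX against H2O at 6 h. There none of the 9 genes passed (limma, Benjamini-Hochberg), where 3.77% of all genes did. An unadjusted p under 0.05 was reached by 4 of the 9 and by 3969 of all 19938 genes. Hsp90aa1 was 12.60, 12.54, 12.56, 12.56 and 12.52 in ABX tumours at 6 h, against 12.62, 12.61, 12.62, 12.66 and 12.64 in H2O tumours. These groups do not overlap and lie the opposite way round from those at 18 h, and the difference of -0.07 ± 0.034 did not pass (adjusted p = 0.229 by limma). Dnaja1 had the smallest adjusted p of the 9 genes (-0.12 ± 0.048, adjusted p = 0.146), with 10.48 to 10.67 in ABX tumours and 10.66 to 10.74 in H2O tumours, ranges that overlap only at their edge. Hspa8 differed by -0.07 ± 0.033 (adjusted p = 0.217). For Hspd1, Hspe1, Dnajb1 and Bag3 the differences were -0.01 ± 0.037, -0.03 ± 0.05, 0.06 ± 0.095 and 0.01 ± 0.052. The number of genes called in this comparison was itself unsteady, 752 in all, 192 without ABX sample 18 and 1420 without ABX sample 20, but none of the 9 genes was called in either case.

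Hspb1 had the largest difference at 6 h and the widest interval. Its values were 8.98, 8.71, 8.63, 8.91 and 10.07 in ABX tumours, against 8.58, 8.59, 8.57, 8.63 and 8.54 in H2O tumours. The H2O tumours were nearly alike, and all but the third of the ABX tumours exceeded all of them. The difference was 0.48 ± 0.23 (95% interval 0.01 to 0.94, adjusted p = 0.239) and was 0.22 without sample 20, the tumour at 10.07.

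Relative to 0 h, the 6 h tumours gave no call among the 9 genes in ABX mice (0% of all genes) or in H2O mice (1.11% of all genes). In ABX mice 2 of 9 had an unadjusted p under 0.05, beside 2011 of all 19938 genes. In H2O mice 1 of 9 did, beside 2113. The 0 h arrays are shared with the choice of the list. Bag3 had the smallest adjusted p in H2O mice (-0.15 ± 0.052, adjusted p = 0.228 by limma) and was called there with quantile normalisation or with array weights. Its values in H2O mice ran from 8.65 to 8.77 at 6 h and from 8.75 to 9.01 at 0 h, which overlap only at their edge. Dnaja1 had the smallest in ABX mice (-0.14 ± 0.048, adjusted p = 0.352 by limma).

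Between 6 and 18 h 1 of the 9 genes was called in ABX mice (Dnaja1, higher by 0.22), against 2.12% of all genes, and 2 in H2O mice (Hsph1 and Hsp90aa1, lower), against 9.58% of all genes. The interaction of antibiotics with the change over this interval, added after the data were seen, was called for Hsph1 (0.50 ± 0.087), Dnaja1 (0.31 ± 0.068) and Hsp90aa1 (0.22 ± 0.049), and 5.31% of all genes were called. All 3 kept this call when any 1 of the 20 arrays concerned was left out. With an array left out, the call between 6 and 18 h was kept in 10 of 10 fits for Hsph1 and 3 of 10 for Hsp90aa1 in H2O mice, and in 6 of 10 for Dnaja1 in ABX mice, where it was also lost with array medians subtracted (0.22) and with the mean of rows (0.14). These comparisons reuse the 18 h arrays that chose the list, so the values describe those arrays.

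The partners of these chaperones were followed in 8 lists of 98 genes, 96 of them measured. These lists were likewise written with earlier results of these data known. The adjusted p-values below rank single genes among all 19938, and neither they nor the counts are a test of the lists. The co-chaperones of HSP90 and HSP70 were the list with the most calls. In H2O mice at 18 h against 0 h 13 of 22 were lower and 0 higher, with a median of -0.16, against 14.1% of all genes called in either direction and a median of 0.01 over all genes. Ppid, a cyclophilin of HSP90, fell by 0.51 on the log2 scale (SE 0.077, adjusted p = 4.82e-05 by limma), Ptges3 (p23, which closes the HSP90 clamp) changed by -0.30 ± 0.046 (adjusted p = 3.62e-05), Fkbp5, an immunophilin of steroid receptor complexes, by -0.25 ± 0.047 (adjusted p = 0.000461), and Stip1 (HOP, the adaptor between HSP70 and HSP90) by -0.20 ± 0.04 (adjusted p = 0.000945). In ABX mice 1 of 22 was called, Fkbp5 (-0.20 ± 0.047, adjusted p = 0.0249 by limma), with a median of -0.03, against 1.22% of all genes. Fkbp5 was therefore called lower in both.

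Set against each other at 18 h, 5 of the 22 co-chaperones were higher in ABX than in H2O tumours and 0 lower, against 7.85% of all genes in either direction. Ptges3 differed by 0.27 ± 0.046 (adjusted p = 0.000757 by limma), Ppid by 0.44 ± 0.077 (adjusted p = 0.00106), Stip1 by 0.18 ± 0.04 (adjusted p = 0.00743) and Cacybp, which binds the ubiquitin ligase Siah1, by 0.19 ± 0.048 (adjusted p = 0.0126). The mean of the list per array, relative to each gene's mean over all arrays, ran from -0.04 to 0.05 in ABX tumours at 18 h and from -0.18 to -0.04 in H2O tumours. The interaction by 18 h was called for 0 of 22 by limma, with Ptges3 having the smallest p, so the call in H2O mice without one in ABX mice does not show that the changes from 0 to 18 h differed between them. The interaction from 6 to 18 h, added after the data were seen, was called for 4 of 22 (Ptges3, Ppid, Cacybp and Chordc1), against 5.31% of all genes. Cdc37, which brings kinases to HSP90, and Ahsa1, which stimulates its ATPase, were called neither at 18 h against 0 h nor between ABX and H2O at 18 h.

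**Figure D3:**
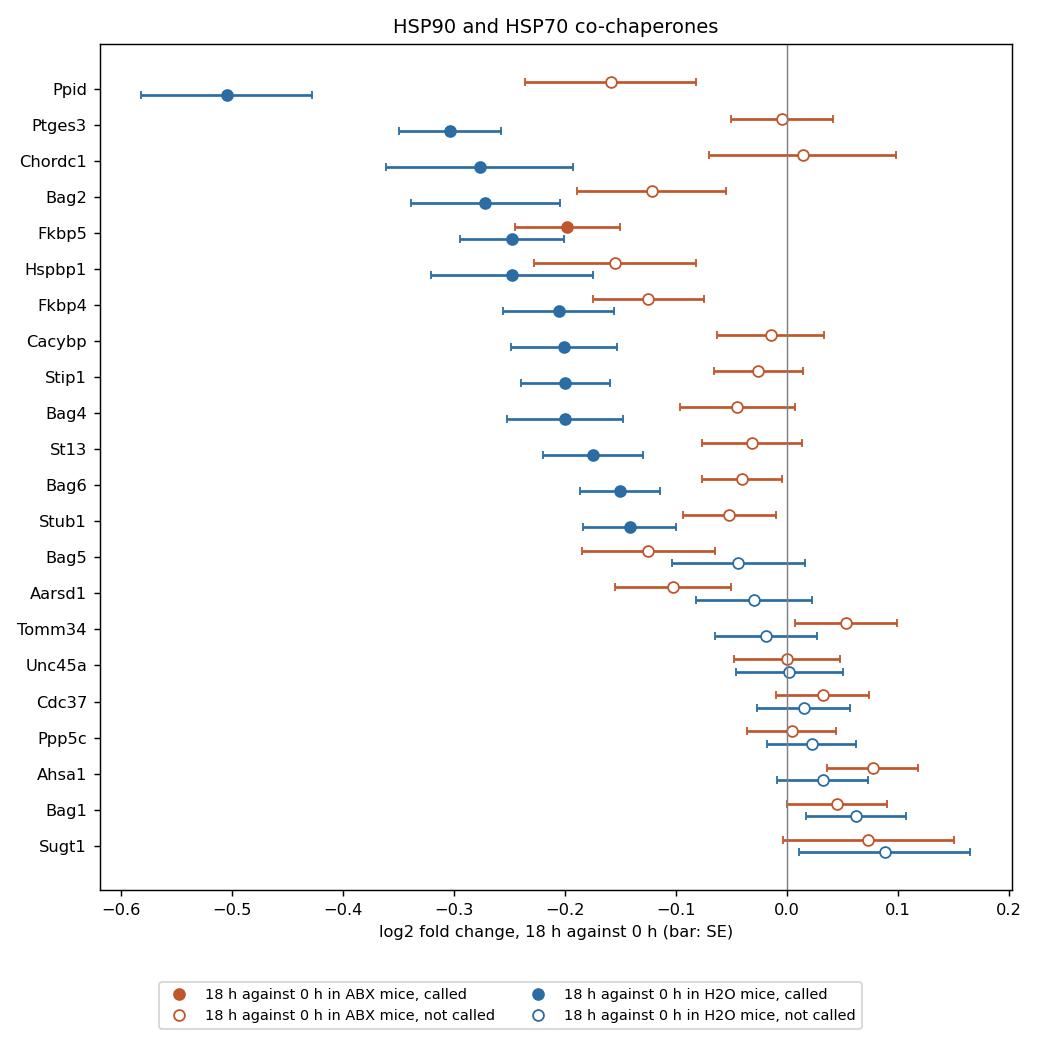
Log2 fold change with SE at 18 h against 0 h (horizontal axis) of 22 co-chaperones of HSP90 and HSP70 in ABX mice (orange, upper) and H2O mice (blue, lower), ordered by the change in H2O mice; filled points passed an adjusted p under 0.05. In H2O mice 13 points are filled, all below 0, and in ABX mice 1.

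Among the J-domain proteins outside the 9 genes, 2 of 14 were lower and 1 higher in H2O mice at 18 h, a share near the 14.1% of all genes. Dnajc21, which acts in ribosome assembly, was lowest (-0.43 ± 0.07, adjusted p = 7.59e-05 by limma), followed by Dnajc8, and Dnajb5 was higher in ABX mice (0.22 ± 0.051, adjusted p = 0.023) and H2O mice (0.24 ± 0.051, adjusted p = 0.00173) alike. At 18 h 5 of 14 were higher in ABX than in H2O tumours, against 7.85% of all genes in either direction, Dnajc21 by 0.40 ± 0.07 (adjusted p = 0.000975 by limma). With an array left out, Dnajc21 and Dnaja2 kept this call in 10 of 10 fits, and Dnajc2, Dnajc7 and Dnajc8 in 4 of 10 each. Dnajc7 and Dnajc8 also lost it with medians subtracted, and Dnajc8 with quantile normalisation and array weights. Of the HSP70 and HSP110 proteins outside the 9 genes, 2 of 9 were lower in H2O mice at 18 h, the HSP110 relatives Hspa4l (-0.32 ± 0.086, adjusted p = 0.0121) and Hspa4 (-0.11 ± 0.035, adjusted p = 0.0371). The call of Hspa4 was kept in 3 of 10 fits with an array left out and lost with quantile normalisation (-0.10). Hspa4 was higher in ABX than in H2O tumours at 18 h (0.17 ± 0.035, adjusted p = 0.00374) and Hspa4l stood at 0.25 ± 0.086 (adjusted p = 0.0685). Hspa1a, the inducible HSP70 that rises most in a classical heat shock, was called in no comparison. It differed by 0.03 ± 0.13 between ABX and H2O tumours at 18 h (adjusted p = 0.952 by limma). Its group means lay between 7.40 and 7.55, near the array medians of 7.253 to 7.365. Hspa1b, of the same list, was not analysed here.

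Of 10 mitochondrial chaperones and proteases other than Hspd1 and Hspe1, 2 were called between ABX and H2O tumours at 6 h, where 3.77% of all genes were. Hspa9 (mortalin, the mitochondrial HSP70) was higher in ABX by 0.14 ± 0.039 at 6 h (adjusted p = 0.034 by limma) and by 0.22 ± 0.039 at 18 h (adjusted p = 0.00107), and stood at 0.16 ± 0.039 at 0 h (adjusted p = 0.148). Lonp1, a protease of the mitochondrial matrix, was higher in ABX by 0.19 ± 0.053 at 6 h (adjusted p = 0.0444). The calls at 6 h are fragile, since 3 of 10 fits that left out an array kept that of Hspa9 and 2 of 10 that of Lonp1. Lower in ABX at 6 h were Hspa13, a microsomal HSP70 relative (-0.26 ± 0.061, adjusted p = 0.0186), and Dnajc9, a histone chaperone (-0.22 ± 0.062, adjusted p = 0.0417). The call of Dnajc9 was kept in 3 of 10 fits with an array left out and lost with medians subtracted (-0.23), quantile normalisation (-0.18) and array weights (-0.14). Without ABX sample 18 Hspa13 stood at -0.20, and without H2O sample 11 at -0.23, and it was not called in either case. Between 18 and 0 h Lonp1 (-0.21 ± 0.053, adjusted p = 0.00688 by limma) and Hspa9 (-0.15 ± 0.039, adjusted p = 0.00701) were the 2 of 10 mitochondrial genes lower in H2O mice, and 0 of 10 were called in ABX mice. Over all genes 14.1% and 1.22% were called there.

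Of the heat shock factors and their regulators, Hsf2 was higher in ABX than in H2O tumours at 18 h (0.29 ± 0.077, adjusted p = 0.0172 by limma), and at 0.24 without H2O sample 21 it was not called. Hsf1 was not analysed here. The small heat shock proteins outside the 9 genes, among them Cryab, gave 0 calls of 8 by limma in each comparison. In the endoplasmic reticulum Hyou1, its HSP110 relative, was lower in H2O mice at 6 h (-0.20 ± 0.05, adjusted p = 0.0431) and at 18 h (-0.21 ± 0.05, adjusted p = 0.00402), where Sil1, an exchange factor of that compartment, was lower too, making 2 of 15. Of the TRiC chaperonin, which folds actin and tubulin, and prefoldin, which delivers to it, 2 of 14 were lower in H2O mice at 18 h (Pfdn4 and Cct2), and that of Cct2 was kept in 2 of 10 fits with an array left out and lost with medians subtracted and with quantile normalisation. Between ABX and H2O tumours at 18 h, 2 of the 14 were higher and 1 lower, Pfdn5 (-0.20 ± 0.053, adjusted p = 0.0169). Over the 96 genes of all 8 lists, 24 were lower and 1 higher in H2O mice at 18 h against 0 h, 1 lower and 1 higher in ABX mice, and 19 higher and 1 lower in ABX than in H2O tumours at 18 h. Over all genes 14.1%, 1.22% and 7.85% were called in these comparisons. The interaction from 6 to 18 h was called as positive for 13 of the 96 and as negative for 1, against 5.31% of all genes. The count of 19 was 6 with only the groups compared in the fit, 8 without H2O sample 21, 10 without H2O sample 23, 10 without ABX sample 26 and 11 without ABX sample 29.

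Some host cell markers were also called at 18 h. Of 12 macrophage genes 2 were lower in ABX than in H2O tumours at 18 h (Cd68, -0.53 ± 0.10, and C1qb, -0.51 ± 0.11) and 0 higher, against 7.85% of all genes in either direction. The mean of the list at 18 h ran from -0.45 to 0.13 in ABX tumours and from 0.09 to 0.49 in H2O tumours. The median difference of the 12 genes was -0.40 at 18 h, -0.19 at 0 h and -0.24 at 6 h, so it was below 0 at every time. At 0 and 6 h 0 of 12 were called, against 0.0903% and 3.77% of all genes. In H2O mice 2 of the 12 were higher at 18 h than at 0 h (Lyz2 and Mpeg1), as were 5 of 10 genes of endothelium and 2 of 8 of fibroblasts. Over all genes 14.1% were called in that comparison, in either direction. Of 9 T cell genes 1, Cd3d, was lower in ABX than in H2O tumours at 18 h (-0.19 ± 0.05), against 7.85% of all genes. The T cell list ran from -0.11 to 0.02 in ABX tumours and from -0.04 to 0.07 in H2O tumours. Every marker had a level on every array, since array values have no true zero. The part of these cells in the chaperone and co-chaperone values at 18 h was not tested.

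Tumours of the same group also differed among themselves, and the chaperones fell into sets there. Pearson's r was taken over the 30 arrays after each group's mean had been subtracted, as a description, since the arrays share their processing and scale. Hsp90aa1 and Dnaja1 went together most (r = 0.65), Hsph1 with Hsp90aa1 (0.56) and Dnaja1 (0.49), and Hspe1 with Dnaja1 (0.57) and Hspa8 (0.55). With quantile normalisation r was 0.41 for Hsp90aa1 and Dnaja1 and 0.36 for Hspe1 and Hspa8. Hspd1 and Hspe1, the chamber and its lid, had r = 0.33, which became 0.54 without sample 20. Quantile normalisation lowered it to 0.17 and subtraction of array medians raised it to 0.59.

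Dnajb1, Bag3 and Hspb1 formed another set, with r = 0.62 for Dnajb1 and Hspb1, 0.58 for Dnajb1 and Bag3 and 0.44 for Bag3 and Hspb1, and all of them ran against Hspd1 (-0.48, -0.53 and -0.59). With array medians subtracted these values with Hspd1 were -0.15, -0.14 and -0.46, and with quantile normalisation -0.69, -0.54 and -0.65. The sets were not separate, as Dnajb1 also had r = 0.45 with Hspe1 and 0.41 with Hsph1. Much of the relation within this set and with Hspd1 came from ABX sample 20 at 6 h, which had 9.50 for Dnajb1, 8.92 for Bag3, 10.07 for Hspb1 and 12.31 for Hspd1. Without it r was 0.32 for Dnajb1 and Hspb1, 0.29 for Dnajb1 and Bag3 and 0.15 for Bag3 and Hspb1. With Hspd1 it was then 0.05 for Dnajb1, -0.24 for Bag3 and -0.31 for Hspb1.

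**Figure D4:**
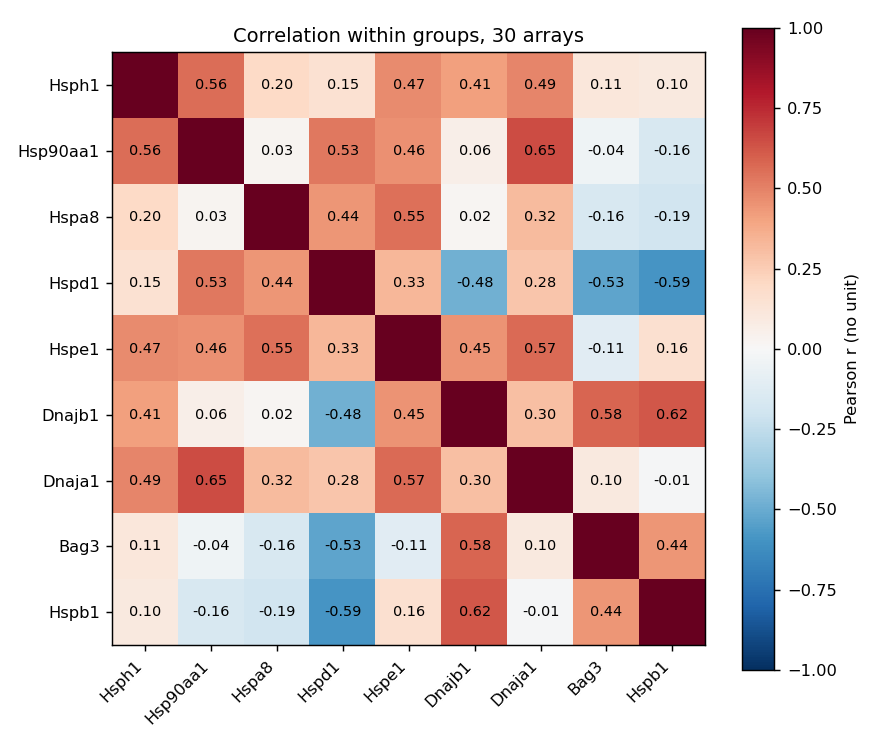
Pearson's r between the 9 chaperone genes over 30 arrays after subtraction of group means, with colour and number both giving r. Hsp90aa1 with Dnaja1 stands at 0.65, and Hspd1 against Hspb1 at -0.59.

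The genes of muscle moved with this second set. The list of 14 skeletal muscle markers, which include Acta1 and Ckm, ran from -0.63 to 1.63 in ABX tumours at 6 h and from -0.63 to 0.21 in H2O tumours, the highest being sample 20, and 0 of 14 were called between these groups by limma. Within groups r with the muscle list was 0.80 for Hspb1, 0.62 for Dnajb1, 0.36 for Bag3 and -0.56 for Hspd1, against 0.12 for Hsph1. Without sample 20 it was 0.67 for Hspb1, 0.22 for Dnajb1, -0.05 for Bag3, -0.17 for Hspd1 and -0.06 for Hsph1. Hspb1 thus kept its relation with muscle markers across the other 29 arrays, but the relation was not particular to muscle. Over all 30 arrays Hspb1 had r = 0.68 with macrophage markers, 0.49 with the T cell list and 0.43 with endothelium. With fibroblast markers it had r = 0.23 and with keratinocyte markers -0.09. Dnajb1 had r = 0.58 with the T cell list and 0.52 with macrophage markers, and without sample 20 these were 0.38 and 0.23, against 0.22 with muscle. Hspb1 and Bag3 are abundant in muscle, where Bag3 serves the turnover of the sarcomere. The part of muscle in the Hspb1 values was not tested.

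**Figure D5:**
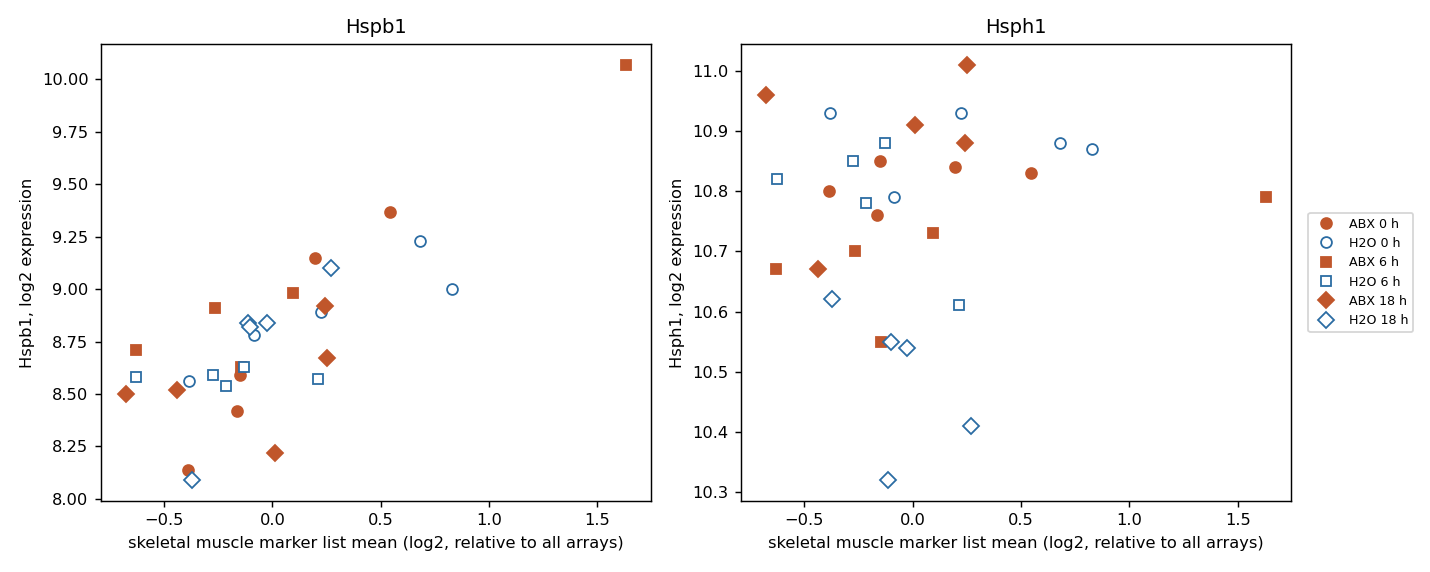
Log2 expression of Hspb1 (left) and Hsph1 (right) on the vertical axes against the mean of 14 skeletal muscle markers per tumour (horizontal axes, log2 relative to all arrays), with filled orange points for ABX and open blue points for H2O, and circles, squares and diamonds for 0, 6 and 18 h. Hspb1 climbs with the marker mean up to the ABX tumour of 6 h at 1.63 and 10.07, and Hsph1 does not (r within groups 0.80 and 0.12).

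The genes outside the 9 whose pattern was most like that of Hsph1 over the 30 arrays were Dnajc21 (r = 0.87), Septin14 (0.86), Hdac2, Socs6 and Lats1 (0.84 each) and Trmt10a (0.83). After subtraction of group means r was 0.73 for Dnajc21, 0.70 for Septin14, 0.61 for Socs6, 0.57 for Hdac2 and Lats1 and 0.53 for Trmt10a. The ranking over all arrays reuses the 0 and 18 h values of Hsph1 that chose the list and is a description. The values after subtraction are those of genes picked by it, from the same arrays. With the 9 genes included in the ranking, Hsp90aa1 came at rank 6 among 19937 genes and Dnaja1 at rank 214, whereas Hspa8 was at 5655 and Hspb1 at 9017. The genes outside the 9 most like their mean within groups were Vcl (0.90), Atp11b (0.88), Tbc1d12 and Nisch (0.86 each) and Kdm5c and Cd99l2 (0.85 each). That mean followed Dnajb1 (0.85) and Hspb1 (0.81) far more than Hsp90aa1 (0.25), as genes with a wider spread weigh more in it.

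Several of the genes had more than 1 row on the array. The 3 rows of Hsp90aa1 gave 0.15, 0.14 and 0.17 for ABX minus H2O at 18 h, and the 3 of Hspa8 gave 0.04 each. The 2 rows of Dnaja1 had r = 0.51 over the arrays, and its second row gave 0.10 where the first gave 0.18. With the mean of both rows Dnaja1 stood at 0.14 and was not called.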

How the data were processed

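Total RNA of 30 EL4 tumours was hybridised to Affymetrix mouse gene arrays, and the authors' deposited values are on a log2 scale. The submitters' processing notes name Partek 6.6, without its role; summary and normalisation steps are not given in the sources used here. Values were used as deposited (medians per array of 7.253 to 7.365). Rows were named through the platform's probe table: 21775 of 28853 rows had 1 symbol, 1578 several and 5500 none, and the row of highest mean stood for each of 19938 genes. Hsp90ab1 had no such row.

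The 6 groups entered a single linear fit in limma 3.58.1 in R 4.3.3 (lmFit, eBayes; 24 residual degrees of freedom). P-values were two-sided and adjusted by Benjamini-Hochberg within each of 10 comparisons and 1 added later, and "called" means an adjusted p under 0.05. The script was tested on simulated data. The labels do not state separate mice, so p-values measure the spread between samples, part of which may be technical. Sample numbers run through the series and pair no samples; the numbers of arrays limit the precision.

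The members and lists were chosen with earlier results of these data known. Besides the 9 genes, the text names up to 4 called genes per list and comparison by adjusted p (otherwise the gene of smallest p), the 6 non-member genes most like Hsph1 and the 6 most like the mean of the members, and markers that move with a member. Cdc37, Ahsa1, Hspa1a, Cryab, Hspa4l at 18 h between ABX and H2O, and Hspa9 at 0 h were named after their values were seen. Alternatives were array medians subtracted, quantile normalisation, mean of rows, genes at or above the median level, array weights, only the groups compared, and each array left out.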

Additional observations from a re-analysis of the deposited data

Results flagged for a closer look

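Within groups of 5 tumours, 5 of 54 gene and group combinations held a tumour far from the other 4, where chance gives about 1 in 20 (2.7). In ABX tumours at 6 h sample 20 stood at 12.31 for Hspd1 (the others at 12.47 to 12.51), at 8.92 for Bag3 (8.63 to 8.70) and at 10.07 for Hspb1 (8.63 to 8.98). This is the tumour with the highest muscle marker mean, 1.63, and its part in these values was not tested. In the same group sample 18 stood at 11.92 for Hspe1 (12.13 to 12.18). In H2O tumours at 18 h sample 22 stood at 8.09 for Hspb1 (8.82 to 9.10).

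The interaction term of limma, ABX minus H2O in the change with time, was 0.47 for Hsph1 by 18 h, the value that chose the list and so no test of it. Over the interval from 6 to 18 h it was 0.50 for Hsph1, 0.31 for Dnaja1 and 0.22 for Hsp90aa1, which reuse the 18 h arrays of that choice and are given as a description. ABX samples 18 and 20 had the lowest array weights, 0.24 and 0.334.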

How the results depend on the processing

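No called value of the 9 genes changed sign under any alternative run. Of the results on single genes that were not called, 1488 stayed uncalled and were not flagged as moved, 10 passed the threshold and 2 were flagged as moved. Of those called, 228 kept their call and 36 lost it, with the same direction. Uncalled values that were not flagged could still change in size or sign. Dnajb1 between ABX and H2O at 6 h stood at 0.06 and ran from -0.07 to 0.14 with an array left out. Counts of the 9 genes called moved as follows, the cause not being tested. With quantile normalisation or array weights, 1 gene (Bag3) was called at 6 h against 0 h in H2O mice. With only the groups compared, the counts were 1 at 18 h against 0 h in H2O mice, 1 for ABX against H2O at 18 h, 1 at 18 h against 6 h in H2O mice and 0 at 18 h against 6 h in ABX mice, where fewer arrays enter the fit. With genes at or above the median level, fewer genes were tested, and 1 (Hspa8) was called at 18 h against 0 h in ABX mice and 4 at 18 h against 6 h in ABX mice; array weights also gave 1 (Hspa8) at 18 h against 0 h in ABX mice. With array medians subtracted, 0 were called for the interaction by 18 h and 0 at 18 h against 6 h in ABX mice, and with the mean of all rows 0 at 18 h against 6 h in ABX mice.

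Leaving out each array gave 2 to 4 genes at 18 h against 0 h in H2O mice (2 without sample 21), 2 to 3 for ABX against H2O at 18 h, 0 to 1 for the interaction by 18 h, 1 to 2 at 18 h against 6 h in H2O mice (1 without any of samples 11, 13, 14, 15, 21, 23 and 24), 0 to 2 at 18 h against 6 h in ABX mice (0 without samples 18, 19 or 27, and 2 without sample 20), 3 to 3 for the interaction from 6 to 18 h and 0 to 0 in the others. Of 20 such fits of the interaction by 18 h, 15 called Hsph1.

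Co-chaperones lower in H2O mice at 18 h numbered 12 to 13 under the scalings, 8 with only the groups compared and 10 to 13 with an array left out. Those higher in ABX than in H2O tumours at 18 h numbered 2 with only the groups compared and 3 to 5 with an array left out (3 without sample 21). The repeats of the list counts and of the correlations without single arrays were added after the data were seen. Counts over all genes that moved by over 1.5 times were as follows. For ABX against H2O at 6 h (752) they were 443 with medians subtracted, 1266 with array weights, 9 with only the groups compared and 192 to 1420 with an array left out. At 6 h against 0 h in H2O mice (222) they were 377 with genes at or above the median level, 815 with weights and 119 to 191 with an array left out. At 18 h against 0 h in ABX mice (244) they were 490, 569 and, with only the groups compared, 46, and 94 to 346 with an array left out. For ABX against H2O at 0 h (18) they ran from 4 to 126 and, with an array left out, from 7 to 32, and at 18 h (1566) they were 600 with only the groups compared and 771 to 1686 with an array left out. The interaction by 18 h (21) had 6 to 121, and 2 to 119 with an array left out. At 18 h against 6 h in H2O mice (1910) they were 3565 with weights and 1072 to 2060 with an array left out. In ABX mice (422) they were 0 to 804, and 105 to 721 with an array left out. The interaction from 6 to 18 h (1058) had 573 to 1698, and 511 to 1538 with an array left out. At 6 h against 0 h in ABX mice (0) they reached 17 with an array left out.

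No paired analysis was possible because no replicate number is shared between groups.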
